A study of Homo sapiens with 4 samples.

Results

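The shared response of glioblastoma cells to *FLI1* knockdown was measured as the difference between 2 control and 2 shFLI1 RNA-seq libraries in a model that blocks on cell line. U87MG and U251MG are established human glioblastoma cell lines, and each of them gave 1 control and 1 shFLI1 library. Control cells carried the empty lentiviral vector pGreen, although the sample titles read shControl. shFLI1 cells carried a lentiviral vector with hairpins against *FLI1*, and the series design names 2 of these. Every culture had been infected with lentivirus and selected with puromycin, and each library came from mixed stable cells rather than from a single clone. Against an empty vector, the loss of *FLI1* and the carriage of a hairpin cannot be told apart. The 2 cell lines served as the replicates of the knockdown, which leaves 1 residual degree of freedom per gene. The edgeR test moderates each gene's variance with that of the other genes tested. Each P-value is therefore not a measure of that gene's own spread between the 2 cell lines alone.

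A total of 9772 genes had at least 100 counts in every library and were tested with edgeR's quasi-likelihood test. Of these, 178 genes (1.82% of those tested) were higher and 321 genes (3.28%) were lower in shFLI1 cells at an adjusted P below 0.05. Scaled to total counts, the split changed to 487 genes higher and 288 lower and the median over all genes moved to 0.11. Other scalings moved it less, with 153 higher and 294 lower for DESeq2 size factors. Leaving the 10 most abundant genes out of scaling gave 168 and 314. With the interferon-stimulated genes left out of the scaling and the fit, 145 were higher and 171 lower. That lower count is in part the absence of 124 interferon-stimulated genes called lower in the main fit. The genes described here are those of the 178 and 321 that were protein-coding and moved the same way in both cell lines. They were also not on a broad list of 528 known interferon-stimulated genes. They comprised 155 higher and 193 lower genes of 9424 protein-coding genes tested, out of 16475 protein-coding genes in the table. All 155 and 193 moved the same way in both lines, which the rule itself required. A further 124 lower genes and 0 higher genes were on the interferon list, of which 296 genes were tested. The remaining calls were mostly long non-coding RNAs, with 13 higher and 1 lower.

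FLI1 is a transcription factor of the ETS family, whose members bind DNA at a GGAA core, and it is best known from blood and endothelial cells and as a fusion partner in Ewing sarcoma. Interferon-stimulated genes are antiviral and antigen presentation genes that are switched on together through STAT and IRF factors. Glioblastoma cells keep parts of the astrocyte programme, such as intermediate filaments, and secrete growth factors, matrix proteins and cytokines.

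The counts of *FLI1* were 107 and 52 in the control and shFLI1 libraries of U87MG, and 216 and 111 in those of U251MG. As CPM, the counts scaled by TMM to a common library size, this was 9.73 and 2.46 in U87MG, and 12.1 and 3.73 in U251MG. Its fold change on the log2 scale in U87MG was -1.98, with Clopper-Pearson bounds at 95% confidence of -2.49 and -1.49, and in U251MG it was -1.70, with bounds of -2.04 and -1.36, so the targeted gene was lower in both libraries labelled shFLI1. These intervals cover counting error only. With 52 counts in U87MG shFLI1 cells, *FLI1* was below the minimum and was not itself in the test, and the minimum likewise leaves out other genes that fell under 100 counts in a library. The total was between 12229780 and 28891055 counts per library, and the shFLI1 library was the deeper one in each cell line. The summed level of 8 glial markers ranged from 4380 to 8160 CPM, mostly *VIM*, whereas the astrocyte marker *S100B* had between 1 and 11 counts. Summed haematopoietic markers lay between 0.948 and 2.55 CPM and endothelial and epithelial markers between 0.842 and 5.91 CPM, and 0 genes of either list reached 100 counts in every library.

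The shared changes outside the interferon list were moderate. In the 155 higher genes the median log2 fold change was 0.80 for U87MG and 0.70 for U251MG, and the shared estimate ran from 0.56 to 1.76. The 193 lower genes had a median of -0.87 in U87MG and -0.80 in U251MG, with shared estimates from -1.90 to -0.58. Only 4 of the higher genes rose more than 2-fold in each line, against 23 of the lower genes that fell more than 2-fold in each. More than 1.5-fold in each line was reached by 105 higher and 129 lower genes. The 124 interferon-stimulated genes had a median shared log2 fold change of -1.46, and the median over all genes tested was 0.00. Across all genes tested, 6271 (64.2%) had the same direction in the 2 lines. At the edge of the threshold, *DBP* was just inside with an adjusted P of 0.0499 and *SLC2A1* just outside with 0.0504.

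**Figure D1:**
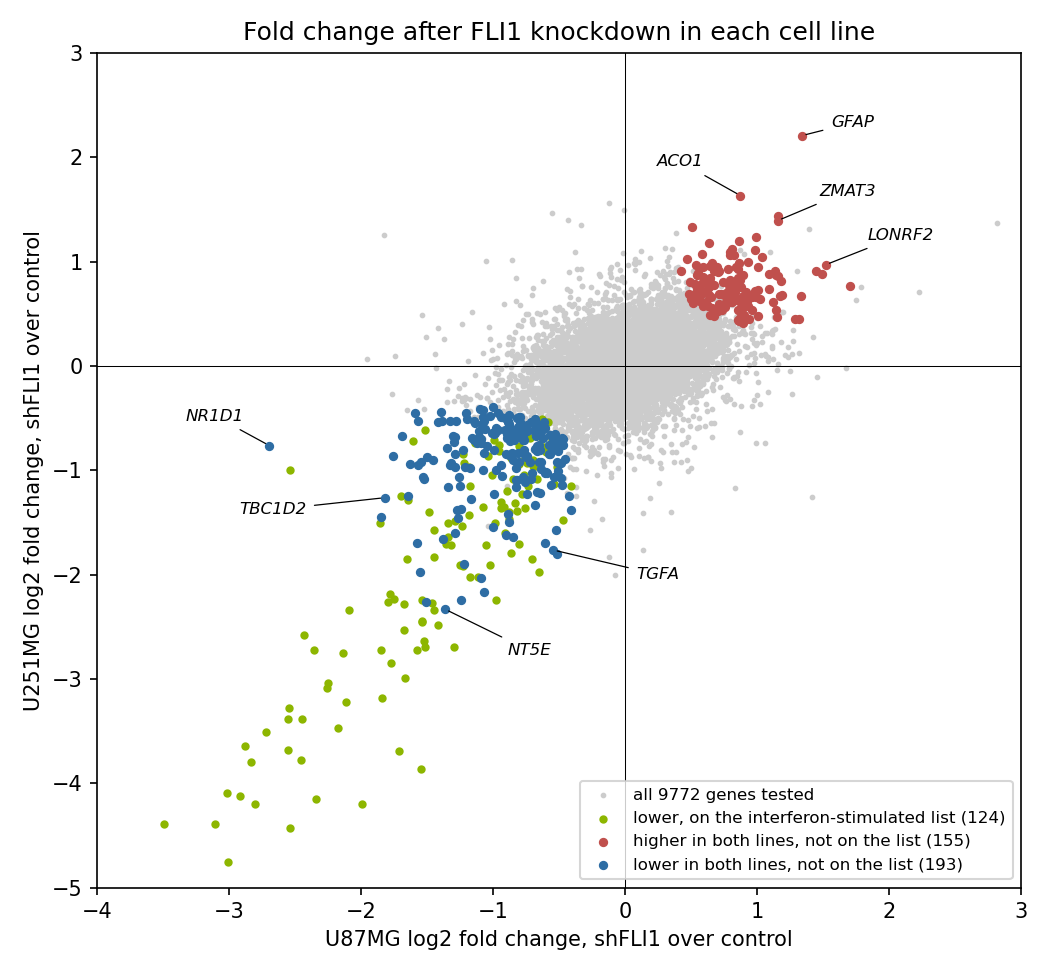
Log2 fold change of shFLI1 over control in U87MG (x axis) and U251MG (y axis) for the genes tested, 1 point per gene, with called genes in colour. The 155 higher genes (red) lie in the upper right and the 193 lower genes (blue) in the lower left, nearer to the centre than many of the 124 interferon-stimulated genes (green), and 2 genes lie outside the axes.

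The gene with the largest shared rise was *GFAP*, the intermediate filament protein of astrocytes. It had 660.5 CPM in U87MG control and 1673 in U87MG shFLI1 cells, and 20.4 and 94.4 CPM in the U251MG pair. Both shFLI1 libraries were thus above their own control, although the lines differed widely in level, and the U87MG control lay above the U251MG shFLI1 library. The shared log2 fold change was 1.76 (SE 0.226, adjusted P = 0.00270). The keratin gene *KRT18*, also an intermediate filament, moved the other way with a shared log2 fold change of -0.61 (adjusted P = 0.0372), and of 10 filament genes on the list 8 were not called. The keratins *KRT80* and *KRT81*, which were not on that list, were also lower (-0.81 and -1.15, adjusted P = 0.0154 and 0.0452). With the length and GC trend removed, *KRT18* and *KRT81* were not called (adjusted P = 0.0946 and 0.0565). In that setting the glial marker *NES*, not called in the main fit, was called higher (0.70, adjusted P = 0.0233). Of 14 tested astrocyte and glial lineage genes, *GFAP* was the only one called higher in the main fit and *ID4* the only one called lower. Each is 7.14% of that list, and *GFAP* and *KRT18* are each 10% of the filament list. Over all genes, 1.82% were higher and 3.28% lower.

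*ZMAT3*, a p53 target that encodes an RNA-binding zinc finger protein, rose from 24.3 to 54.2 CPM in U87MG and from 13.8 to 36.3 CPM in U251MG (shared log2 fold change 1.28, SE 0.160, adjusted P = 0.00259). *TRIM2*, a ubiquitin ligase of neurons, rose from 66.4 to 136 and from 71.0 to 146 CPM (1.04, SE 0.136). Like *GFAP*, both rose more than 2-fold in each cell line, and in both the shFLI1 libraries lay above both controls.

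Several of the other leading genes encode parts of the microtubule transport and cilium machinery. *DYNC2H1*, the heavy chain of the ciliary dynein, rose from 14.7 to 29.3 CPM in U87MG and from 21.7 to 51.2 in U251MG. *KIF3A*, a subunit of the kinesin that moves cargo into cilia, rose from 13.4 to 24.8 and from 15.1 to 27.7 CPM. *MYO5A*, an actin motor that carries vesicles, rose from 36.6 to 66.3 and from 37.3 to 71.2 CPM. With *KIF3B*, *KIF5B*, *MYO6*, *NIN*, *CEP135*, *AKAP9*, *BICD1*, *KTN1* and *CPLANE1* they formed a group of 12 higher genes of motors, centrosome and cilium, whose shared log2 fold changes ran from 0.57 to 1.12. This group and the role groups named hereafter were assembled from the called genes after their values were seen, so their sizes carry no test. They hold 56 of the 155 higher and 61 of the 193 lower genes.

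A group of 4 higher genes encode mitotic kinesins and kinetochore proteins. *KIF14*, a kinesin of cytokinesis, rose from 21.5 to 48.7 CPM in U87MG and from 49.4 to 86.8 CPM in U251MG (shared log2 fold change 0.99, SE 0.156, adjusted P = 0.00817). The kinetochore genes *CENPE*, *CENPF* and *KNL1* had shared log2 fold changes of 0.83, 0.76 and 0.65. With the trend of transcript length and GC content removed, as described further on, *KIF14* and *CENPF* were still called, whereas *CENPE* (adjusted P = 0.0629) and *KNL1* (0.40, adjusted P = 0.167) were not. On the wider list of mitosis and G2/M genes, 3 of 82 tested genes (3.66%, against 1.82% over all genes) were called higher and 0 lower. Its median log2 fold change was 0.28 in U87MG and -0.01 in U251MG.

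Small RNA silencing was represented by 5 higher genes. *DICER1*, the ribonuclease that cuts microRNA precursors, rose from 43.9 to 98.3 CPM in U87MG and from 57.1 to 104 CPM in U251MG (shared log2 fold change 1.01, SE 0.146, adjusted P = 0.00542). *AGO2*, the argonaute that slices targets, rose from 328 to 655 and from 126 to 199 CPM (0.83, SE 0.157). *TNRC6B* and *TNRC6C*, the GW182 partners of argonaute, and *DCP2*, the decapping enzyme, had shared log2 fold changes of 0.67, 0.77 and 0.81.

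A group of 13 higher genes act on chromatin or chromosome structure, with shared log2 fold changes from 0.58 to 0.94. *ATRX*, a chromatin remodeller often mutated in glioma, rose from 72.2 to 125 CPM in U87MG and from 72.8 to 156 CPM in U251MG. *BPTF*, the large subunit of the NURF remodeller, rose from 90.6 to 172 and from 115 to 185 CPM. *TET3*, which oxidises methylcytosine, and *CHD7*, a remodeller of neural progenitors, had shared log2 fold changes of 0.74 and 0.82. *NIPBL* and *SMC3*, which load and form cohesin, had values of 0.58 and 0.60. On the list of chromatin modifiers, 3 of 94 tested genes (*ATRX*, *TET3* and *CHD7*; 3.19%, against 1.82% over all genes) were called higher and 0 lower, with a median of 0.10. With the length and GC trend removed, 6 of the 13 genes were still called, among them *ATRX*, *BPTF* and *TET3*, whereas *CHD7* (adjusted P = 0.0567), *SMC3* (adjusted P = 0.0951) and *NIPBL* (0.34, adjusted P = 0.217) were not.

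The other higher groups comprised large scaffold and membrane proteins. *DST*, a linker between cytoskeletal filaments, rose from 495.5 to 903.5 CPM in U87MG and from 416 to 957 CPM in U251MG. *SYNE2*, *ABLIM1* and *LPP*, which tie the nucleus or adhesions to actin, had shared log2 fold changes of 0.77, 0.92 and 0.79. Among 9 genes of the Golgi, endosomes and lipid transfer, *VPS13A* and *VPS13C*, a pair of bridge-like lipid transfer proteins, both had 0.81. Among 8 cell surface genes, *ITGB8*, the integrin subunit that activates latent TGF-beta, rose from 156 to 314 and from 189 to 365 CPM (0.98, SE 0.143, adjusted P = 0.00557). *TENM1*, a teneurin of neural adhesion, rose from 14.3 to 28.2 and from 10.3 to 22.2 CPM. In each of these pairs the shFLI1 library was the higher one, and for *DST*, *ITGB8* and *TENM1* the lowest shFLI1 library lay above the highest control.

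The remaining genes among the 20 with the largest rise in both lines were of mixed roles. *LONRF2*, a ubiquitin ligase of protein quality control, rose from 68.7 to 197 CPM in U87MG and from 39.6 to 77.5 CPM in U251MG. *ACO1*, the cytosolic aconitase that also regulates iron-responsive mRNAs, rose from 43.6 to 79.9 and from 19.97 to 62.0 CPM. *CYFIP2*, a subunit of the WAVE actin regulator, rose from 22.1 to 60.2 and from 26.5 to 49.8 CPM. *DACH1*, *UACA*, *NOPCHAP1* and *KANTR* had shared log2 fold changes between 0.99 and 1.17. On the authors' FPKM with limma, on the log2(value + 1) scale, *KANTR* had 0.02 (adjusted P = 0.973) and *ACO1* 0.30 (adjusted P = 0.439). *NOPCHAP1* had 0.66 (adjusted P = 0.196), so none of these calls held there. Most other calls did not hold there either. Only 5 of the 20 leading higher genes, and 6 of all 155 higher genes, were still called on that scale.

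*U2AF1*, which encodes a splicing factor subunit, is the only leading riser that has a near-identical annotated copy among the leading fallers. *U2AF1* had 382 and 1401 counts in U87MG control and shFLI1 cells and 494 and 1648 in U251MG. Its copy *LOC102724594*, also on chromosome 21, had 412 and 340 counts in U87MG and 464 and 208 in U251MG. Summed over the pair, the log2 fold change was only 0.19 in U87MG and 0.22 in U251MG. Whether the opposite calls came from the division of reads between the near-identical copies was not tested, and both genes are uncertain.

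**Figure D2:**
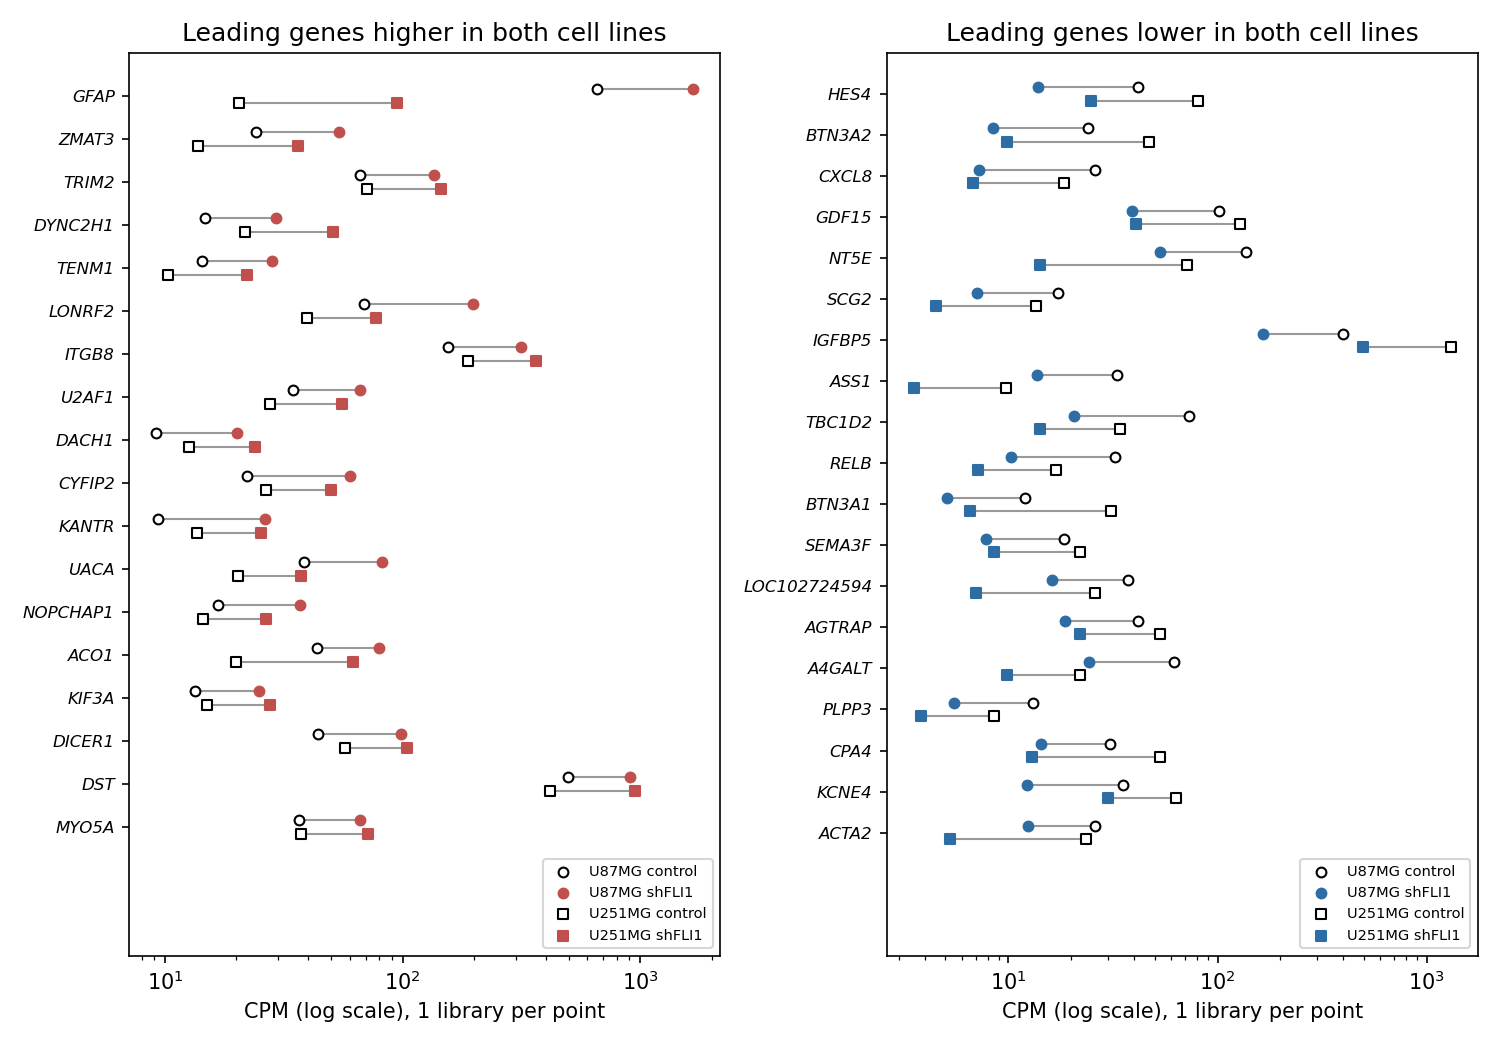
CPM (log axis) in each of the 4 libraries for leading higher and lower genes, ranked by their change in the cell line where they changed least, with control libraries open, shFLI1 libraries filled, circles for U87MG and squares for U251MG. Every shFLI1 point lies right of its own control for the higher genes and left of it for the lower genes, and the smaller of the 2 log2 fold changes ran from 1.34 in *GFAP* to 0.86 in *MYO5A*.

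A group of 17 lower genes encode transcription factors or their inhibitors, with shared log2 fold changes from -1.74 to -0.63. *HES4*, a repressor of the Notch target family, fell from 41.6 to 13.9 CPM in U87MG and from 80.6 to 24.9 CPM in U251MG (shared log2 fold change -1.64, SE 0.153, adjusted P = 5.03e-04). *RELB*, an NF-kappaB subunit, fell from 32.4 to 10.3 and from 16.9 to 7.12 CPM (-1.45, SE 0.185, adjusted P = 0.00266). *ID1*, an inhibitor of basic helix-loop-helix factors that responds to BMP, fell from 471 to 252 and from 385 to 214 CPM (-0.88, SE 0.147). The related *ID2* and *ID4* had shared log2 fold changes of -0.78 and -0.76, so 3 genes of the ID family fell in both lines. The fourth, *ID3*, had -0.54 and was not called (adjusted P = 0.0935). *NR1D1* and *DBP*, output genes of the circadian clock, had -1.74 and -0.96, and for *NR1D1* the change was far larger in U87MG (84.5 to 13.03 CPM) than in U251MG (21.3 to 12.5 CPM). *E2F1* and *E2F2*, activators of S phase genes, had -0.72 and -0.82. *ELF4* was the only one of 14 tested ETS family genes to be called (7.14%, against 3.28% lower over all genes). It had a shared log2 fold change of -0.63 (adjusted P = 0.0313).

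A group of 15 lower genes encode secreted factors or their binding proteins, with shared log2 fold changes from -1.65 to -0.73. *CXCL8*, the neutrophil chemokine interleukin 8, fell from 26 to 7.20 CPM in U87MG and from 18.4 to 6.75 CPM in U251MG (shared log2 fold change -1.65, SE 0.190, adjusted P = 0.00157). *IGFBP5*, which binds insulin-like growth factors, fell from 399 to 165 and from 1302 to 498.5 CPM (-1.33, SE 0.167, adjusted P = 0.00259). *IGFBP6* and *IGFBP7* of the same family had -1.07 and -0.99. *SCG2*, a granin of secretory granules, fell from 17.4 to 7.11 and from 13.6 to 4.503 CPM. *SEMA3F*, a secreted semaphorin that repels axons and vessels, fell from 18.5 to 7.82 and from 22.1 to 8.502 CPM. The Wnt antagonist *DKK1* fell from 174 to 90.9 and from 184 to 88.7 CPM (-0.99, SE 0.137, adjusted P = 0.00410). For *CXCL8*, *SCG2*, *SEMA3F* and *DKK1* both shFLI1 libraries were below both controls.

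The lower genes on the list of receptor tyrosine kinases and their ligands were all ligands. Of 32 tested genes, 6 (18.8%, against 3.28% over all genes) were called lower. They were *VEGFA*, *VEGFC*, *GAS6*, *MDK*, *BDNF* and *TGFA*, of which *VEGFC* was also on the interferon list. *VEGFA*, the main angiogenic factor, fell from 155 to 76.4 CPM in U87MG and from 70.5 to 50.5 CPM in U251MG (shared log2 fold change -0.75, SE 0.163, adjusted P = 0.0316). *TGFA*, a ligand of the EGF receptor, fell from 98.8 to 67.8 and from 110 to 32.4 CPM, more in U251MG than in U87MG. *HBEGF*, another ligand of the EGF receptor, rose with a shared log2 fold change of 0.78 (adjusted P = 0.0321). The median over the whole list was -0.14.

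A group of 10 lower genes mark stress or growth arrest, with shared log2 fold changes from -1.52 to -0.74. *GDF15*, a stress cytokine of the TGF-beta superfamily, fell from 102 to 39.1 CPM in U87MG and from 129 to 40.9 CPM in U251MG (shared log2 fold change -1.52, SE 0.147, adjusted P = 5.63e-04). *GADD45A* and *GADD45B*, which are induced by DNA damage and other stress, had -1.26 and -1.11. *DDIT3*, which encodes the stress factor CHOP, fell from 32.1 to 17.5 and from 26.7 to 9.48 CPM (-1.19, SE 0.194, adjusted P = 0.00962). *XBP1*, a transducer of the unfolded protein response, fell from 106 to 63.0 and from 71.4 to 39.4 CPM (-0.81, SE 0.139). Of 49 tested genes of the unfolded protein response and ATF4 targets, 0 were called higher and 9 lower (18.4%, against 3.28% over all genes). These were *DNAJB9*, *DDIT3*, *XBP1*, *CHAC1*, *TRIB3*, *SESN2*, *PCK2* and, also on the interferon list, *ATF3* and *NUPR1*. Leaving out genes shared with the interferon list, 7 of 45 were called lower and the median was -0.23.

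Of 37 tested p53 targets, 8 (21.6%, against 3.28% over all genes) were lower and 1 (2.7%, against 1.82%) was higher. *GDF15*, *GADD45A*, *GADD45B*, *SESN2* and *PLK2* were lower, as were *CDKN1A*, *FAS* and *PMAIP1*, which are also on the interferon list, and *ZMAT3* was higher. *CDKN1A*, the cell cycle inhibitor p21, had a shared log2 fold change of -1.38 (SE 0.141, adjusted P = 8.19e-04). Over all 37 genes the median was -0.12, and 28 were not called. Of 27 NF-kappaB and cytokine genes, 6 (22.2%) were lower and 0 higher, with a median of -0.16. The lower genes were *CXCL8*, *RELB*, *NFKB2*, *TNFRSF21*, *CSF1* and *NFKBIA*, the last pair also on the interferon list. Of 21 immediate early and AP-1 genes, 4 (19%) were lower (*JUNB*, *KLF10*, *CCN1* and *ATF3*) and 0 higher. Their median of -0.39 was the lowest of the lists other than the interferon list.

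Matrix, growth factor and oxygen-related lists held smaller numbers of called genes. Over all genes tested, 3.28% were lower and 1.82% higher. Of 35 tested matrix glycoprotein and proteoglycan genes, 5 (14.3%) were lower (*IGFBP5*, *IGFBP7*, *FBLN1*, *CCN1* and *SDC1*). Of 45 genes of glycolysis and hypoxia, 5 (11.1%) were lower (*ADM*, *PFKFB4*, *NDRG1*, *LOX* and *VEGFA*). On the TGF-beta and BMP list, *GDF15*, *ID1*, *ID2*, *ID4* and *TGFB2* were lower, which is 12.8% of 39 tested. On the same list *GDF11*, a secreted patterning factor, was higher (2.56%, shared log2 fold change 1.00, SE 0.193). On the axon guidance list *SEMA3F*, *SEMA6B*, *EPHB2* and *PLXNA2* were lower out of 34 tested (11.8%). On the Wnt list the antagonists *DKK1* and *DKK3* were lower, and the receptor *FZD3* and the scaffold *APC* were higher. Each pair is 7.69% of 26 tested. On the MAP kinase list *DUSP1*, *DUSP7*, *DUSP10* and *SOS2* were lower (9.52%) and *PTPN11* was higher (2.38%), out of 42.

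**Figure D3:**
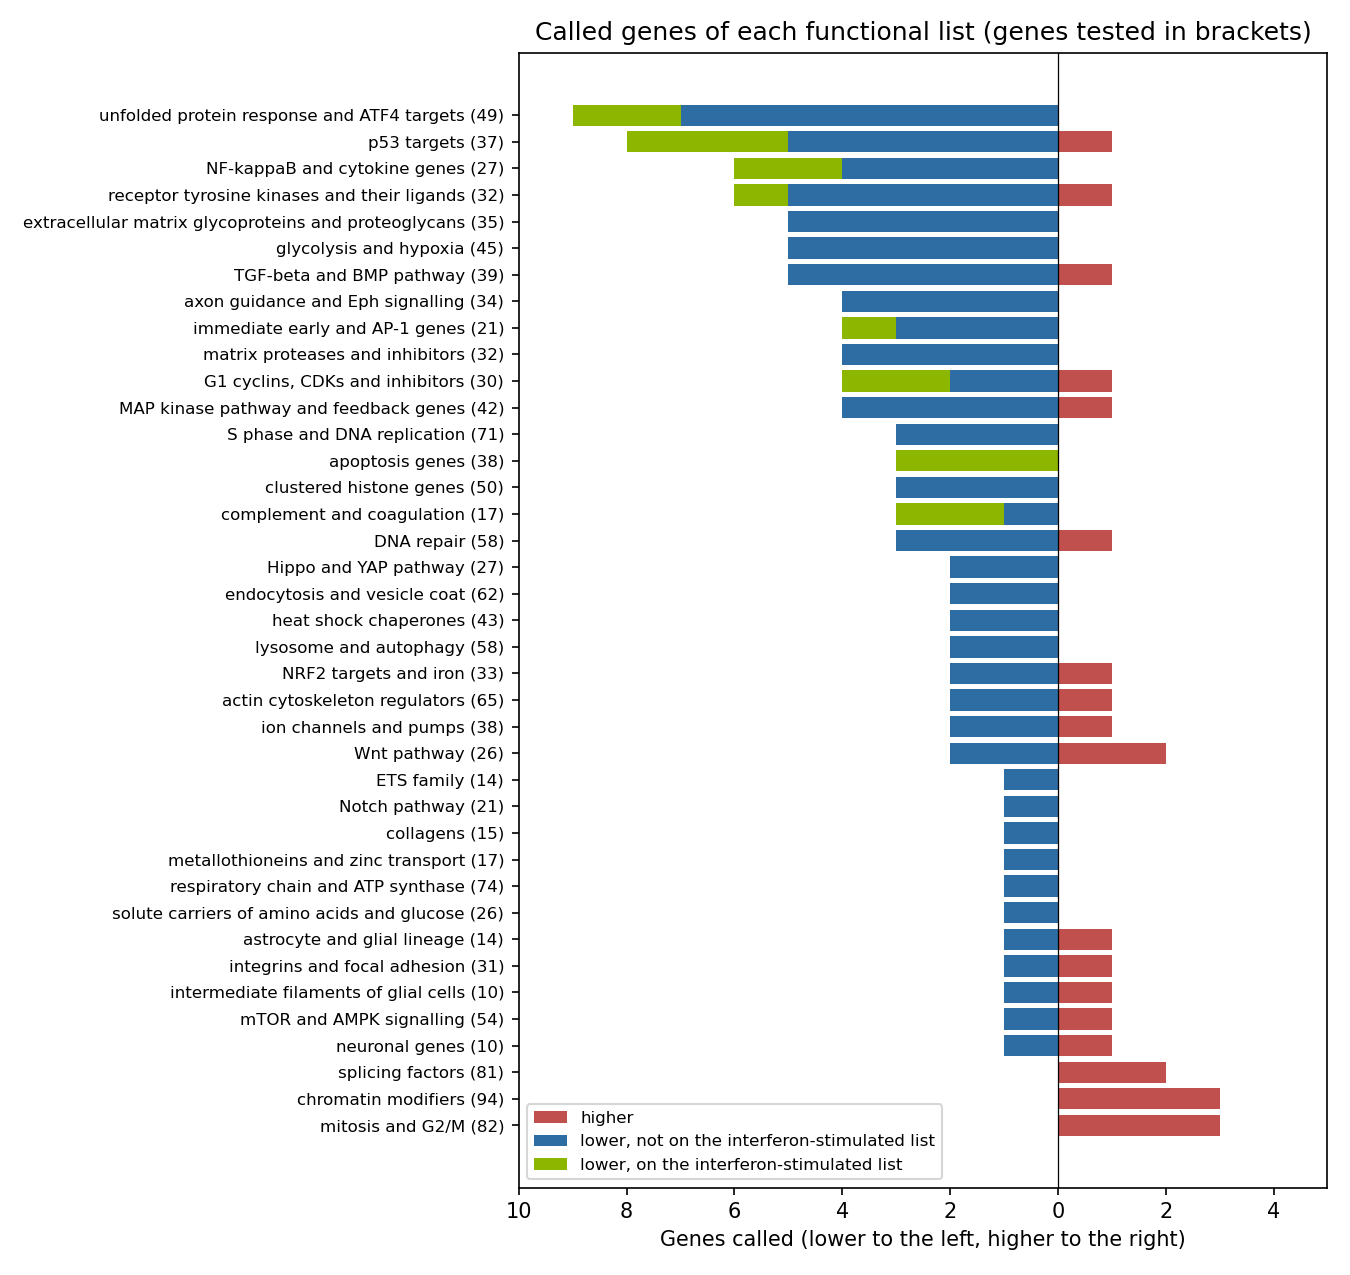
Number of called genes in each of the 39 functional lists other than the interferon list that held at least 1, with lower genes drawn to the left, higher genes to the right, genes also on the interferon list in green, and the number tested in brackets. The unfolded protein response and ATF4 list has the most lower genes (9 of 49), and the mitosis and chromatin lists have 3 higher and 0 lower genes each.

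The largest falls outside the interferon list were those of a pair of butyrophilins and of an ectoenzyme. *BTN3A2* fell from 24.0 to 8.44 CPM in U87MG and from 47.0 to 9.81 CPM in U251MG (shared log2 fold change -1.90, SE 0.211, adjusted P = 0.00130). *BTN3A1*, its neighbour on chromosome 6, which takes part in the response of gamma delta T cells to phosphoantigens, fell from 12 to 5.07 and from 31.1 to 6.55 CPM (-1.78, SE 0.249, adjusted P = 0.00436). Butyrophilins of this family are known to respond to interferon, and they count among the genes described here because the list did not hold them. *NT5E*, which encodes CD73 and makes adenosine from AMP outside the cell, fell from 137 to 53.1 and from 71.5 to 14.2 CPM (-1.84, SE 0.217, adjusted P = 0.00168). All of these fell more in U251MG than in U87MG, as did 103 of the 124 interferon-stimulated genes, whereas 86 of the 193 lower genes fell more in U251MG.

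Among histone genes, *H2AC25*, *H3C14*, *H2BC26*, *H2BC21* and *H2BC11* were lower, with shared log2 fold changes from -1.31 for *H3C14* to -0.59 for *H2BC11*. On the list of clustered histone genes, which does not hold all of these, 3 of 50 tested were lower (6%, against 3.28% over all genes). On that list 0 were higher, 47 were not called and the median was -0.19. Replication-dependent histone mRNAs end in a stem-loop without a poly(A) tail, so libraries made from poly(A) RNA sample them poorly, and paralogous histone genes share sequence. Of the S phase and DNA repair genes, 8 were among those called lower. *CDT1*, which licenses origins, fell from 66.1 to 42.2 and from 63.0 to 27.0 CPM, and *RRM2*, a subunit of ribonucleotide reductase, from 235 to 166 and from 286 to 143 CPM. Of 71 tested S phase genes, 3 were lower (*POLA2*, *CDT1* and *RRM2*), which at 4.23% is near the 3.28% over all genes, and 0 higher, with a median of -0.20. Of 58 tested DNA repair genes, 3 were lower (*RAD54L*, *ERCC2* and *XRCC3*, 5.17%), with a median of -0.03. The repair gene *ERCC6* was higher (1.72%, against 1.82% over all genes), with a shared log2 fold change of 0.74 (adjusted P = 0.0439). With the length and GC trend removed, 3 of the 8 were still called.

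The other leading fallers had diverse roles. *CTSL* and *CTSD*, lysosomal cathepsins, had shared log2 fold changes of -1.18 and -1.07. *ASS1*, the argininosuccinate synthase of arginine synthesis, fell from 33.0 to 13.7 CPM in U87MG and from 9.71 to 3.53 CPM in U251MG. *TBC1D2*, which inactivates the endosomal GTPase RAB7, fell from 72.8 to 20.6 and from 34.1 to 14.2 CPM. *AGTRAP*, a binding partner of the angiotensin receptor, *A4GALT*, which makes the Gb3 glycolipid, *PLPP3*, a lipid phosphatase, *CPA4*, a carboxypeptidase, and *KCNE4*, a potassium channel subunit, had shared log2 fold changes between -1.57 and -1.20. *ACTA2*, smooth muscle actin, fell from 26 to 12.4 and from 23.5 to 5.24 CPM. Its span overlaps that of *FAS*, which was also lower (adjusted P = 0.0133). The use of strand in the counting is not given, so whether reads of *FAS* were counted for *ACTA2* is not known.

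Groups of housekeeping genes held 0 calls in either direction, against 1.82% higher and 3.28% lower over all genes. None of 79 tested cytosolic ribosomal protein genes, 48 translation factors, 19 aminoacyl-tRNA synthetases, 36 proteasome subunits, 74 ubiquitin ligases and conjugating enzymes, 44 genes of cholesterol and fatty acid synthesis or 29 genes of lipid droplets and fatty acid oxidation passed the edgeR test. Their medians lay between -0.04 and 0.09. For cholesterol and fatty acid synthesis the 2 lines differed in sign, with medians of -0.21 in U87MG and 0.29 in U251MG.

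The higher and lower genes differed in transcript structure, which the rule did not use. The median length of the canonical GENCODE transcript was 8428 nt for the higher genes with a transcript (153 of 155), 2989 nt for the lower genes (191 of 193) and 3581 nt over 9361 protein-coding genes tested. The median number of exons was 19, 8 and 10, and the median GC content was 40.1%, 54.3% and 47.7%. The 124 interferon-stimulated genes had medians of 3059 nt and 50.7% GC. Among the longest quartile of tested genes (5540 nt or more) 121 were higher and 33 lower, whereas among the shortest quartile (2159 nt or less) 3 were higher and 55 lower. The longest transcripts were those of *DST* (24709 nt), *NOPCHAP1* (23524 nt) and *SYNE2* (21822 nt), and all of the role groups of higher genes had a median length of 8904 nt or more.

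The trend extended over the 9361 tested protein-coding genes with a canonical transcript. By length quartile, from short to long, their median log2 fold change was -0.11, -0.05, 0.04 and 0.14 in U87MG and -0.06, -0.05, 0.01 and 0.13 in U251MG. Across genes, which are not independent replicates, Spearman's rho between log2 fold change and length was 0.28 in U87MG and 0.25 in U251MG, and with GC content it was -0.32 and -0.30 (9361 genes, each line being 1 pair of libraries). With the trend of length and GC content removed from each cell line, a setting chosen after the data were seen, 84 of the 153 higher and 159 of the 191 lower genes were still called. The median shared log2 fold change went from 0.75 to 0.58 for the higher and from -0.82 to -0.77 for the lower genes. All 38 of the 40 leading genes that had a canonical transcript were still called. Of the role groups of higher genes, 8 of the 12 motor, centrosome and cilium genes, 4 of the 5 small RNA silencing genes, 3 of the 5 cytoskeletal linkers, 6 of the 9 Golgi and endosome genes and 5 of the 8 cell surface genes were still called. Of the lower groups, all 10 stress genes, all 15 secreted factors and 15 of the 17 transcription factors were. Why length, GC content and fold change moved together was not tested.

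**Figure D4:**
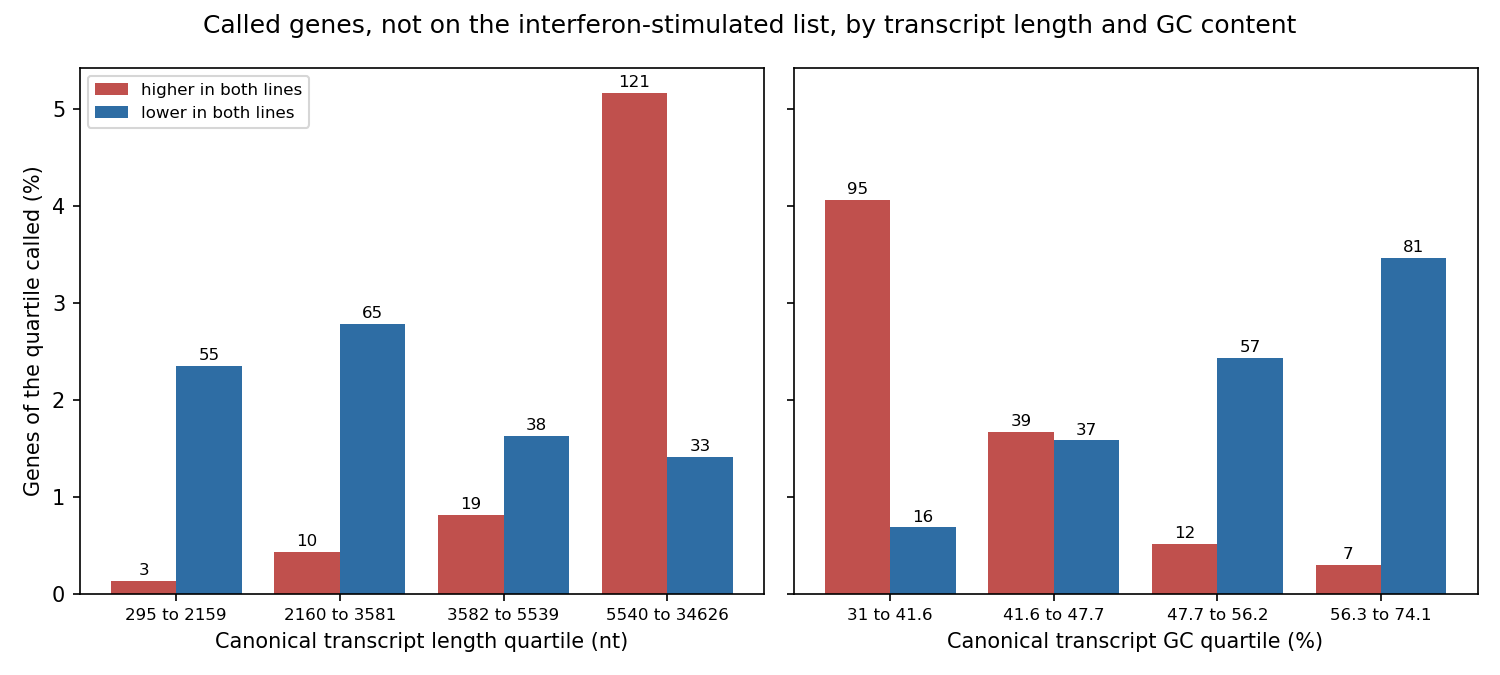
Share of the tested protein-coding genes of each quartile of transcript length (left, in nt) and GC content (right, in %) that was called higher (red) or lower (blue) in both lines and was not on the interferon list, with the number of genes above each bar. The share of higher genes is 5.17% in the longest and 0.128% in the shortest quartile, and the share of lower genes is 3.46% in the most GC-rich and 0.683% in the least GC-rich quartile.

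The deposited table lists individual RNAs, so each leading gene could be examined at the level of its most abundant RNA. For 17 of the 20 leading higher genes and 19 of the 20 leading lower genes, that RNA moved in the direction of the gene in both cell lines. Exceptions among the higher genes were *DYNC2H1* and *KIF3A*. For *KIF3A* the RNA that held 59.6% of the counts in U87MG control cells held 0.0% in U87MG shFLI1 cells. In U251MG its share was 60.7% and 32.4%. The exception among the lower genes was *LOC102724594*, the copy of *U2AF1*. Estimated counts of single RNAs depend on how reads are divided between overlapping isoforms.

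Promoter sequences of RefSeq (GRCh38.p14), from 250 bases before to 50 bases after the start of each gene, were searched on both strands for an ETS site (CCGGAAGT), the core of the interferon-stimulated response element (a pair of GAAA repeats with any 2 bases between them) and a TATA box (TATAAA). A promoter was listed for 131 of the higher and 149 of the lower genes. The interferon core was in 2.29% of the higher and 2.68% of the lower promoters, against 2.83% of all 7918 tested promoters, 3.65% of all 27305 promoters and 44.8% of those of the interferon-stimulated genes that fell (43 of 96). The ETS letters were in 6.87% of the higher and 4.03% of the lower promoters, against 10.4% of tested and 4.44% of all promoters. The TATA letters were in 13.4% of the lower and 4.58% of the higher promoters, against 5.17% of tested and 12% of all promoters. A match describes these letters only and is not evidence of binding.

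The following 5 promoters of genes described above are shown because they hold one of these motifs, which is in capitals. They are the TATA letters in *GDF15* (chr19:18385908-18386207, + strand) and *CXCL8* (chr4:73740319-73740618, + strand), the interferon core in *ACTA2* (chr10:88991288-88991587, - strand), and the ETS letters in *DDIT3* (chr12:57520465-57520764, - strand) and *KIF14* (chr1:200620702-200621001, - strand). Each runs 5′ to 3′ along the gene, and the ETS and interferon matches lie on the opposite strand.
GDF15: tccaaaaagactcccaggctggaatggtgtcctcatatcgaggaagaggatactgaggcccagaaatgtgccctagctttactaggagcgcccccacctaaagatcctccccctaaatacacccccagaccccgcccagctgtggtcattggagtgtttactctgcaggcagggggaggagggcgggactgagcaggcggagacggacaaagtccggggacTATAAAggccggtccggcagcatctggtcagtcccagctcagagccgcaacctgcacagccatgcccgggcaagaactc
CXCL8: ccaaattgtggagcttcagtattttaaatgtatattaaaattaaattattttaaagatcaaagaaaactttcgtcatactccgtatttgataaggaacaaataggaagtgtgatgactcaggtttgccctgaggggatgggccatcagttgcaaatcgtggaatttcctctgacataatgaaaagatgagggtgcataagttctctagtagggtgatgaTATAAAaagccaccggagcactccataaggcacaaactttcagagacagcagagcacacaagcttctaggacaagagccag
ACTA2: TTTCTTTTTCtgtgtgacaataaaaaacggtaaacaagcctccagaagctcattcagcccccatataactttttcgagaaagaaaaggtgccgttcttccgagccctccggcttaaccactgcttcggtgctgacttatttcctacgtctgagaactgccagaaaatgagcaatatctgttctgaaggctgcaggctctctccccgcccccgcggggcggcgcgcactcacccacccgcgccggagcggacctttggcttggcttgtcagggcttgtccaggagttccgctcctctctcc
DDIT3: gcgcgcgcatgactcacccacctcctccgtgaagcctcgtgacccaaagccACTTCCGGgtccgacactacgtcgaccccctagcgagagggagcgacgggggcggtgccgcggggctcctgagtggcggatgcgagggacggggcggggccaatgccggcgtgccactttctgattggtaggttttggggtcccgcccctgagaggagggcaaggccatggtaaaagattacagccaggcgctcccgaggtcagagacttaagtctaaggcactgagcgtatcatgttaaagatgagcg
KIF14: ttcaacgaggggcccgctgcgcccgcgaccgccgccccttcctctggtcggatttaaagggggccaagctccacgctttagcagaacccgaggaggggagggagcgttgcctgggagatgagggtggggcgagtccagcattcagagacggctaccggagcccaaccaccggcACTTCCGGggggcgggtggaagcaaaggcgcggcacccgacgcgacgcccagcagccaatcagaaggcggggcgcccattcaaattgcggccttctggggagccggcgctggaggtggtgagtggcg
The TATA letters begin at position -29 from the start in *GDF15* and at -31 in *CXCL8*, both of which fell. The ETS letters begin at -199 in *DDIT3*, which fell, and at -77 in *KIF14*, which rose. The interferon core of *ACTA2* is at the far end of its window, and *BTN3A2* held 0 matches to it.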

How the data were processed

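RNA-seq libraries of control and shFLI1 cells of U87MG and U251MG were assigned to groups from the sample labels. Per the study's methods, poly(A) RNA was sequenced as paired reads and aligned with HISAT2, and FPKM were computed with StringTie, on build GRCh38.p13 per the labels. The deposited table holds, for each of 185042 linear RNAs, an estimated count for each library, which is not normalized and whose counting tool and use of strand are not given in the sources used here, and the authors' FPKM. TPM and averaged columns, 10 in all, were not used, and the 31346 circular RNAs did not enter the comparison. With 12229780 to 28891055 counts per library, a gene at the minimum of 100 counts is measured with coarse precision.

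Estimated counts of RNAs with the same gene identifier were added up and rounded, which gave 46660 genes. A RefSeq symbol was found for 23775 of the 24411 that are Entrez genes. Genes with at least 100 counts in every library were scaled by TMM and tested with edgeR 4.0.16 (R 4.3.3, quasi-likelihood test, cell line as a block, Benjamini-Hochberg adjustment over all genes tested). The standard error is the absolute log2 fold change divided by the square root of F. The log2 fold change of 1 cell line is the ratio of its 2 CPM values and has no replicate check. A test of the difference between lines was not possible, since it leaves 0 residual degrees of freedom.

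The members, the 528 interferon-stimulated symbols and the 50 functional lists were chosen with earlier results of these data known. Genes were named when they were among the 20 higher and 20 lower with the largest change in the line where they changed least, with read-through genes left out, or were called members of a functional list, and some genes within this rule are not reported here. Groups by role, and the genes named with them, were assembled after the values were seen. Transcript length, exons and GC content came from GENCODE 44 canonical transcripts. Scripts were tested on simulated counts. Alternatives used DESeq2 1.42.0, limma 3.58.1 on log2(FPKM + 1) and log2(FPKM + 0.1), other scalings, filters and thresholds, and splines of 5 degrees of freedom on length and GC content.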

Additional observations from a re-analysis of the deposited data

Results flagged for a closer look

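The circular RNAs of the deposited table were outside the comparison, and their summed counts were higher in shFLI1 than in control cells of both lines. They came to 117137 CPM, on the scale of the linear counts, in U87MG shFLI1 cells against 107515 in U87MG control cells, and to 94097 in U251MG shFLI1 cells against 92617 in U251MG control cells. With 1 library per arm and line these differences have no replicate check, and whether the reads behind them were also counted as linear RNA is not given in the sources used here.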

How the results depend on the processing

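The 40 leading genes kept their direction under every alternative in which they were tested. They were all still called with DESeq2, DESeq2 size factors, total counts, the 10 most abundant genes left out of scaling, protein-coding genes alone, the interferon-stimulated list left out, the earlier quasi-likelihood method, robust estimation, a minimum of 10 counts and filterByExpr. The count of 155 higher and 193 lower genes moved more. Scaled to total counts, 438 were higher (of 487 higher genes in all). A minimum of 10 counts gave 100 higher genes and filterByExpr 96, among them 85 and 77 of the 155, and a minimum of 500 counts gave 117 lower genes (of 196 in all), with 4575 genes tested. Thinned to the shallowest library, 293 were higher and 291 lower (332 higher in all), and the cause was not tested. With the interferon-stimulated list left out, 171 genes were lower in all, which is in part the absence of the 124 listed genes. It kept 168 of the 193, and why the others were lost was not tested. With the length trend removed, 116 genes were higher in all, and with length and GC content removed 131 higher and 198 lower genes of the kind described here were called, settings chosen after seeing the data. Among these 131 and 198 were 84 of the 155 and 159 of the 193, and the others were new calls. In the main fit, more than 2-fold in each line was reached by 4 of the 155 and 23 of the 193 (8 and 94 in all). With at least 1 count in any library, 0 genes were called of 43576 tested (0 higher and 0 lower, also among those described here), with 3156 at an unadjusted P below 0.05, where DESeq2 on the main filter called 119 and 273. Without the replicate block for cell line, 0 genes were called (520 at an unadjusted P below 0.05). On the authors' FPKM with limma, log2(value + 1) gave 14 higher and 70 lower genes, 8 and 13 of them as described here. Among these were 6 of the 155 and 12 of the 193. The log2(value + 0.1) scale gave 9 and 55, with 5 and 10 as described here, and kept 4 of the 155 and 9 of the 193. Of the 40 leading genes, 16 were still called on the first scale and 12 on the second. On the first scale *BTN3A1*, *SEMA3F* and *PLPP3* had -1.15, -0.84 and -0.76 and were not called. Each leading gene's fold change in 1 cell line alone has no test, so counts of calls without a cell line could not be computed. Genes with few counts and the single residual degree of freedom limit what could be called.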
